A study of Rattus norvegicus with 23 samples.

Results

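The pulmonary vein (PV) was compared with the ventricles (V) of the rat heart. The comparison holds 11 of the 23 arrays of the study, the 4 arrays labelled PV and the 7 arrays labelled left ventricle (LV, 4 arrays) or right ventricle (RV, 3 arrays). Its members are the 12031 of 16544 named genes whose probe was well above background, by the scanner software's own test, on every array of at least 1 side. RNA of 6 regions of male Wistar rats, 12 animals of 8 to 11 weeks, was measured by single-color oligonucleotide microarray. All rats were given pentobarbital, an anesthetic, with heparin, which prevents clotting, and no other treatment or genetic change is stated. The heart and lungs were then perfused to wash out most of the blood, and soft tissue with fat and the vagus nerve was trimmed off before the samples were cut. Each LV was cut into 3 sample pieces, so the 4 LV arrays can include pieces of 1 heart, and RV samples came from the free wall. The labels do not say which samples share a rat, so the tests treat the arrays as separate samples and their p-values measure only the spread between these, which may be partly technical.

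In the rat, the wall of the pulmonary vein carries a sleeve of heart muscle that continues from the left atrium and surrounds an inner vessel wall of smooth muscle, elastic fibres and connective tissue. Ventricular muscle is a thicker, working myocardium with its own regulatory light chain, its own transcription factors and a high capacity for burning fatty acids. The venous muscle is known in electrophysiology as a place where ectopic beats arise, and nerves of the autonomic plexus reach the heart along these veins. RNA of a piece of tissue is a mixture over its cells, so fewer cells of a type and less RNA per cell cannot be told apart in any value given here.

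Levels are given as the log2 of the normalized signal plus 1, where a difference of 1 is a doubling. Every difference is PV minus V with its standard error (SE), n = 4 against 7 arrays, and a gene was called at a Benjamini-Hochberg adjusted p below 0.05 in limma over all 12031 genes. Levels of different genes come from different probes and are not comparable with each other. Signals summed over a list are given only to compare arrays.

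Each PV array was nearest to another PV array and each ventricular array to another ventricular one. Between 58.7% and 78.2% of probes were well above background on an array, 72.7% to 78.2% on the 5 arrays in the first row of their slides and 58.7% to 68.0% on the 6 arrays in the second row. PV2 is the PV array of the first row, and the second row holds 3 PV and 3 ventricular arrays. The 11 arrays lie on 3 slides, each with both sides. RV2 had the highest ventricular level of several genes that were high in PV, and results that rest on it are given without it.

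Of the 12031 genes, 4963 (41.3%) were called, 2257 (18.8%) higher and 2706 (22.5%) lower in PV, and the median difference over all of them was -0.07. These shares stand beside every list count below, and no list was tested as a set. The difference was at least 2-fold for 627 of the genes called higher and 609 of those called lower, and at least 8-fold for 101 and 50. The 4 PV arrays and the 7 ventricular arrays did not overlap in 3466 genes (28.8%). PV was also compared with LV and with RV separately, in a fit that kept the arrays of both ventricles and shared the PV arrays. Against both, 3258 genes (27.1%) were called in the same direction, 1526 higher and 1732 lower. Refits with LV alone or RV alone, which left out the other ventricle, are different fits and are named as such below. Between LV and RV themselves, 47 genes (0.391%) were called. Only 2 genes were called in opposite directions against the 2 ventricles. These were Bex1, with a PV mean of 11.42 ± 0.22 (SD, n = 4) between the LV mean of 12.06 and the RV mean of 9.93, and Xirp2, a protein of the intercalated disc region, with 11.03 ± 0.08 (SD, n = 4) between 11.47 and 10.70.

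**Figure D1:**
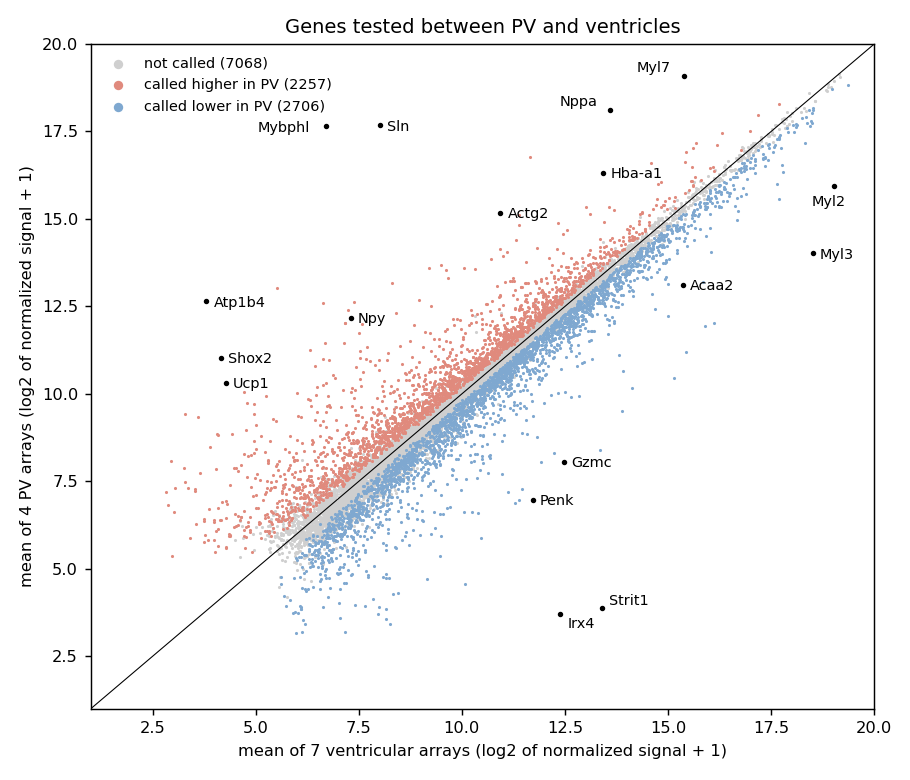
Mean level of each of the 12031 tested genes on the 4 PV arrays (vertical axis) against its mean on the 7 ventricular arrays (horizontal axis), both as the log2 of the normalized signal plus 1, with the line of equality. Mybphl, Sln and Atp1b4 lie farthest above the line and Strit1 and Irx4 farthest below it.

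The stretches around the starts of 5 genes that carry the comparison are shown, which are 4 of the genes with the largest differences and Nppa, the atrial hormone, from RefSeq on the GRCr8 assembly, each from 250 bases before to 50 bases after the start. Capitals mark the motifs searched on both strands, which are the CArG box by name, AGATAA (1 form of the GATA factor motif), CATTCC (the M-CAT element), CAGCTG, which is an E-box and reads the same on both strands, and TATAAA of core promoters. Other forms of the GATA factor motif were not searched. Mybphl (chr2:198693202-198693501, plus strand), Nppa (chr5:163711934-163712233, plus strand) and Atp1b4 (chrX:121952727-121953026, plus strand) were higher in PV. Irx4 (chr1:31868040-31868339, minus strand) and Myl3 (chr8:119616844-119617143, plus strand) were lower.
Mybphl: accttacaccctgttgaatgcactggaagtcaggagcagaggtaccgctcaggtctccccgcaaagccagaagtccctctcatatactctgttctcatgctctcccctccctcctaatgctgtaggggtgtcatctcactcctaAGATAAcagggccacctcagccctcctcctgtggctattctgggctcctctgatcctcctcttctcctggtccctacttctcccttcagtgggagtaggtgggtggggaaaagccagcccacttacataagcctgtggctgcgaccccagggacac
Nppa: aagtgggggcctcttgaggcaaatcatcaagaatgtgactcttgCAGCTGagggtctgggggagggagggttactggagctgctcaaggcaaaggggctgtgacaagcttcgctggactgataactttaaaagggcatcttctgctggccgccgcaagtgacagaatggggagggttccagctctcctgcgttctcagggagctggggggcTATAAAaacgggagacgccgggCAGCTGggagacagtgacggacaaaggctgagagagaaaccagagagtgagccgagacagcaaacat
Atp1b4: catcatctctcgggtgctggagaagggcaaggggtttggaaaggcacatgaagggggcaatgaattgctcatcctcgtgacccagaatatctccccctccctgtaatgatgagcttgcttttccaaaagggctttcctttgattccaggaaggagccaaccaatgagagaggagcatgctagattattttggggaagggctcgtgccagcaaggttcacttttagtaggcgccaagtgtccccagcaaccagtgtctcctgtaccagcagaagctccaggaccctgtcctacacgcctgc
Irx4: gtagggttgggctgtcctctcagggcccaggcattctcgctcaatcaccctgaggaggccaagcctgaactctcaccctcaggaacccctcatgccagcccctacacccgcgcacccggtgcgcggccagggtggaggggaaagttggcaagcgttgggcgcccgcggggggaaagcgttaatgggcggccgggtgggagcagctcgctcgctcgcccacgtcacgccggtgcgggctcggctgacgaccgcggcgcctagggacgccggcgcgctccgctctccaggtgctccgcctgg
Myl3: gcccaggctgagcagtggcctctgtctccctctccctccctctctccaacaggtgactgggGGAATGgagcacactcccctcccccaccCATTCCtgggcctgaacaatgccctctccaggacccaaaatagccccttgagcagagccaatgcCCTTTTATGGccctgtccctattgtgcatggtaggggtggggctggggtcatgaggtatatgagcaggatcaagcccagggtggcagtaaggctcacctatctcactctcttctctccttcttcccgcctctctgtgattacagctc
The Mybphl stretch holds AGATAA beginning at position -106 from the start, and the Nppa stretch holds TATAAA at -39 and CAGCTG at -206 and -17. The Myl3 stretch holds a CArG box at -97 and CATTCC at -161 and, on the other strand, at -189. Neither the Atp1b4 nor the Irx4 stretch holds any of the 5 motifs in this window. Among all 27457 RefSeq stretches of 300 bases, 1.64% hold a CArG box, 11.3% AGATAA, 13.9% CATTCC, 15.1% CAGCTG and 14.3% TATAAA. Stretches were given for 8 of the 12 genes with the largest differences upward and 6 of the 12 downward. CATTCC was in 3 of those 8 and 2 of those 6, and a CArG box in 0 of 8 and 1 of 6. These are matches of letters and were not tested.

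Of the 20 genes of the atrial myocyte list, 18 passed the filter on dim genes, 13 of them were called higher in PV and 0 lower, and all 13 were also called against LV and RV separately. Of 16 atrial genes well above background on all 11 arrays, 12 were higher. The median difference of the 18 was 1.78, against -0.07 over all genes tested. Of the 20 genes of the ventricular myocyte list, 16 passed, 12 were lower and 0 higher, with a median of -2.88, and 8 of the 12 genes well above background on all arrays were lower. The summed signal of the atrial list was 1501135 to 2044092 on the PV arrays and 317111 to 534069 on the ventricular arrays. For the ventricular list the sum was 477493 to 527091 and 1400169 to 1823968.

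Mybphl, which encodes a protein of the thick filament related to myosin-binding protein H, had the largest difference of all. Its level was 17.58, 17.59, 17.61 and 17.80 on the 4 PV arrays, and 5.91 at the lowest, 6.49 at the median and 9.09 at the highest on the 7 ventricular arrays. The difference was 10.93 ± 0.50, a fold of 1954 (adjusted p = 3.11e-08). RV2 gave the highest ventricular value and the other 6 lay at or below 6.65, and without RV2 the difference was 11.33. Sln encodes sarcolipin, a small protein that inhibits the calcium pump SERCA in atrial muscle. It stood at 17.79, 17.76, 17.68 and 17.45 in PV against 6.44, 7.68 and 10.66 in V (lowest, median and highest), a difference of 9.67 ± 0.66 (adjusted p = 6.58e-07). The groups were far apart for both genes, and the spread within V was many times that within PV.

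Myl7, the atrial regulatory light chain of myosin, was at 18.98, 19.16, 19.15 and 19.07 in PV and at 13.99, 15.57 and 16.34 in V. Its difference was 3.71 ± 0.40 (adjusted p = 2.38e-05). Myl2, the ventricular regulatory light chain, ran the other way, with 15.82, 15.85, 16.27 and 15.85 in PV and 18.76, 19.06 and 19.22 in V, a difference of -3.06 ± 0.12 (adjusted p = 1.14e-08). Myl3, the ventricular essential light chain, was 13.42, 14.16, 14.58 and 13.91 in PV and 18.30, 18.53 and 18.70 in V, lower in PV by 22.5-fold (difference -4.49 ± 0.18, adjusted p = 1.32e-08). The essential light chain named for the atrium, Myl4, did not pass the test. It was 17.59, 17.73, 17.91 and 17.74 in PV and 17.59, 17.84 and 18.00 in V (difference -0.07 ± 0.09, adjusted p = 0.592). Both cardiac myosin heavy chains overlapped between the sides. Myh6, the fast alpha chain, differed by -0.12 ± 0.11 (adjusted p = 0.399) and Myh7, the slow beta chain, by -0.19 ± 0.11 (adjusted p = 0.167).

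Mybpc1, the slow skeletal form of myosin-binding protein C, was well above background in PV and on none of the ventricular arrays. Its level was 8.14, 7.49, 8.64 and 8.03 in PV. The measured means were 8.07 and 2.95, and with the ventricular arrays at their detection floor PV was 27.1-fold higher. The difference of 5.13 was 2.08 under normexp, a model-based background correction with an added offset that draws dim values together. Mybph rose by 1.82 ± 0.13 (adjusted p = 1.03e-06), whereas Mybpc3, the cardiac form, differed by -0.11 ± 0.10 (adjusted p = 0.391). Of the 14 thick filament genes tested, 4 were higher and 5 lower. Other lower genes of this list were Myh7b (-1.90 ± 0.16), and the M-band genes Myom1 (-0.47) and Myom2 (-0.69).

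The proteins shared by all heart muscle gave small differences. Of the 18 genes of the list of striated heart muscle in general, all well above background on the 11 arrays, 3 were higher, 6 lower and 9 were not called, with a median of -0.11. Actc1, cardiac actin, differed by -0.03 ± 0.10, Tnnt2 by -0.13 ± 0.11, Tnni3 by -0.19 ± 0.08 and Mybpc3 by -0.11 ± 0.10, none of them past the test. Under quantile normalization 5 genes of this list were higher and 5 lower, and its median and that of the thick filament list became 0.03. The called genes of this list moved little, apart from Pln, with Csrp3 at 0.77 ± 0.15, Ldb3 at 0.67 ± 0.08 and Ckm, the muscle creatine kinase, at -0.71 ± 0.08. In the fit of all 23 arrays Csrp3 was no longer called and 3 genes of the list were lower. The summed signal of the list was 3987423 to 4186649 on the PV arrays and 4125115 to 5129937 on the ventricular arrays. Among 24 thin filament and Z-disc genes, 9 were higher and 5 lower. Tpm2, a tropomyosin of slow and smooth muscle, had the largest difference of these, 2.96 ± 0.30, followed by Tnnt1, the slow skeletal troponin T, at 1.66 ± 0.38 with overlapping groups. Ankrd1 and Ankrd2, ankyrin repeat proteins that respond to stretch, were higher by 0.93 ± 0.22 and 1.36 ± 0.38.

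**Figure D2:**
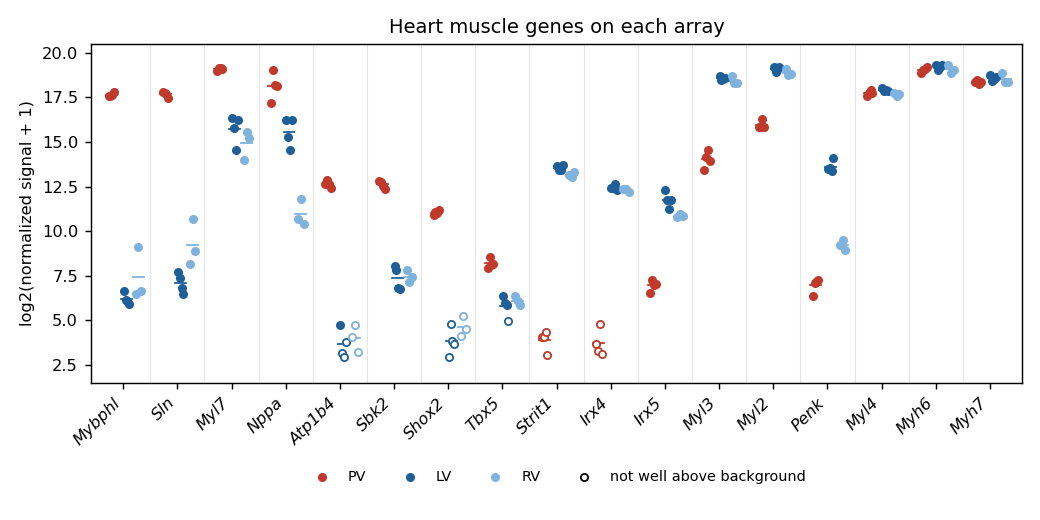
Level of heart muscle genes on each array (vertical axis, log2 of the normalized signal plus 1), with 4 PV, 4 LV and 3 RV arrays as points, open where the probe was not well above background, and a bar at each group mean. Strit1 and Irx4 are open in all 4 PV arrays, Shox2 in all 7 ventricular arrays, and Myl4, Myh6 and Myh7 overlap between the sides.

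Several of the 12 largest differences upward were of genes with varied functions. Atp1b4, a member of the sodium pump beta subunit family, was 12.67, 12.85, 12.62 and 12.44 in PV and 2.94, 3.78 and 4.74 in V, where 1 of 7 arrays was well above background. Its difference was 8.84 ± 0.35, or 8.76 with the dim arrays at their floor. Rab15, a small GTPase of endosomal recycling, was 13.20, 12.93, 12.86 and 13.08 against 4.60, 5.53 and 6.47 (difference 7.49 ± 0.33, adjusted p = 2.42e-08). Sbk2, a serine/threonine kinase, was 12.82, 12.75, 12.55 and 12.35 against 6.73, 7.42 and 8.04 (difference 5.23 ± 0.25). In all 3 the lowest PV array lay above the highest ventricular one by more than the whole range of either side. Fam163a was dim on all 7 ventricular arrays and had means of 9.33 and 3.61. With the dim arrays at their floor it was 50.1-fold higher in PV, and its difference of 5.72 was 2.92 under normexp. Stard10, a lipid transfer protein of the atrial list, was higher by 4.38 ± 0.11. Obp3, of a multigene family of lipocalins whose members are near copies, was higher by 5.17 ± 0.32. Its relative Mup5, named after its values were seen, had 4.95 ± 0.33, and probes of such genes may share targets.

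The regions beside PV gave the following means for the same genes. Mybphl was 17.19 in left atrium and 17.51 in the sinoatrial region, and Sln 18.18 and 17.85. Atp1b4 had means of 11.94 and 13.15 there, and Rab15 12.64 and 13.01. Mybpc1 stood at 5.94 and 3.61, with a PV mean of 8.07. In the pulmonary artery, Mybphl was 7.60 and Sln 8.15. No test was made of these regional means.

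Strit1 and Irx4 marked the ventricular side. Strit1 encodes DWORF, a micropeptide that activates SERCA by displacing its inhibitors. It was 4.06, 4.04, 4.32 and 3.07 in PV, near background on all 4 arrays, and 13.02, 13.42 and 13.73 in V. The measured means were 3.87 and 13.39 (adjusted p = 2.23e-10), and with the dim arrays at their floor PV was 670-fold lower. Its difference of -9.52 was -6.83 under normexp. Irx4, an Iroquois homeodomain factor of the ventricle, was 3.68, 3.28, 4.81 and 3.12 in PV, not well above background on any PV array, and 12.21, 12.37 and 12.62 in V. Its measured means were 3.72 and 12.39 (adjusted p = 1.47e-09). With the dim arrays at their floor it was 365-fold lower in PV, and its difference of -8.67 was -5.70 under normexp. Irx5 was well above background in PV at 6.52, 7.27, 6.99 and 7.05, but lay at 10.77, 11.26 and 12.32 in V (difference -4.42 ± 0.29). Irx2 was 3.58, 5.12, 5.00 and 5.34 in PV, well above background on 2 of 4 arrays, and 6.22, 8.68 and 9.59 in V. It differed by -3.32 ± 0.69, and its LV mean of 9.14 exceeded its RV mean of 6.66. These 3 Iroquois genes did not overlap between the sides, as was so for 28.8% of all genes tested. Irx4 and Irx5 are among the 12 largest differences downward, which were taken without overlap. Irx1 and Irx6 did not pass the filter, and Irx3 had no probe.

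Among the other genes far lower in PV were several muscle genes and several of no muscle list. Rpl3l, a ribosomal protein specific to striated muscle, was 11.09, 10.00, 10.43 and 10.33 in PV and 15.02, 15.11 and 15.35 in V (difference -4.69 ± 0.17). Fhl2, a LIM protein of the sarcomere and nucleus, differed by -3.96 ± 0.15, and Lbh, a transcription cofactor, by -2.70 ± 0.14. Aqp7, a channel for glycerol and water, was 9.18, 8.23, 8.24 and 7.97 against 13.06, 13.38 and 13.77, lower by 30.7-fold. Cyp11a1, the enzyme that begins steroid synthesis from cholesterol, was 6.22, 6.29, 6.09 and 4.97 against 10.03, 10.42 and 11.06 (difference -4.58 ± 0.28), with PV4 not well above background. Bcl11b, a zinc finger transcription factor known from T cells, had means of 3.41 and 8.26 with no PV array above background. With these arrays at their floor it was 25.6-fold lower in PV. Hpd, an enzyme of tyrosine breakdown, had means of 3.58 and 8.15, also with no PV array above background. With these at their floor it was 22.3-fold lower. Under normexp the difference of Bcl11b was -2.05 in place of -4.85, and that of Hpd shrank likewise. Fam81a and Cxcl11, a chemokine, were well above background on 1 of 4 PV arrays each, with differences of -4.46 and -5.50, the same with the dim arrays at their floor, that were -2.51 and -3.27 under normexp. Penk, which encodes the enkephalin precursor, was 6.37, 7.08, 7.15 and 7.28 in PV and 8.92, 13.35 and 14.09 in V. Its pooled difference of -4.75 ± 1.09 (adjusted p = 0.00472) joins an LV mean of 13.61 with an RV mean of 9.21.

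Of the 36 genes of the list of heart transcription factors, 28 were tested, 10 were higher in PV, 8 lower and 10 not called, with a median of 0.05. Of the 24 well above background on all 11 arrays, 8 were higher and 6 lower. Against LV and RV separately 10 were higher and 4 lower in both, and without PV4, 5 were lower. Shox2, which represses the working-muscle program in the sinus horn, lay between 10.91 and 11.16 on the 4 PV arrays, while all 7 ventricular arrays were dim, at or below 5.25. Its means were 11.03 and 4.16 (adjusted p = 7.73e-08). With the dim arrays at their floor it was 115-fold higher in PV, and its difference of 6.87 was 4.35 under normexp. Its mean was 7.90 in the left atrium and 11.40 in the sinoatrial region. Tbx5 was 7.94, 8.56, 8.09 and 8.18 in PV and 4.96, 5.94 and 6.38 in V, a difference of 2.28 ± 0.24 (adjusted p = 1.92e-05). Tbx18, a factor of the sinus horn and its mesenchyme, was higher by 1.45 ± 0.19. The orphan receptors of atrial identity Nr2f1 and Nr2f2 were higher by 1.44 ± 0.12 and 1.79 ± 0.11. Prrx1, a mesenchymal homeobox gene, was higher by 1.75 ± 0.16.

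Nkx2-5 was lower by 0.45 on the log2 scale and Gata4 by 0.32, both with overlapping groups, while Gata5 was lower by 1.25 without overlap. Tbx3, which holds the pacemaker program in nodal tissue, was 10.03, 10.10, 10.37 and 9.86 in PV and 9.82, 10.56 and 10.73 in V (difference -0.36 ± 0.17, adjusted p = 0.106). It was called, at -0.46, without RV2. Isl1 was well above background on 1 of 11 arrays and Hey2 on 9 of 11, so neither entered the test. With no filter, or one that asks for a level above 4 on 1 array, Isl1 was called higher in PV, with a difference of 1.09 between dim levels. It was 4.15, 4.78, 3.20 and 5.02 in PV and at most 3.58 in V, and the Hey2 groups overlapped. Igfbpl1 was also untested, with 1 of 4 PV and 4 of 7 ventricular arrays above background. Of 9 Hox genes tested among 25 in the list, 4 were higher and 1 lower, or 2 lower without PV4 or without LV2. Of the 6 well above background on all 11 arrays, 2 were higher and 1 lower. Hoxd9, Hoxb3 and Hoxa2, position genes of the trunk and hindbrain, were higher by 2.27 ± 0.25, 2.17 ± 0.33 and 1.96 ± 0.36. For Hoxa2, 6 ventricular arrays lay between 5.97 and 6.95 and RV2 at 8.28, below the lowest PV array at 8.39.

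Of 24 calcium handling genes tested, 4 were higher and 7 lower, against 18.8% and 22.5% of all genes. The median was -0.02, and under quantile normalization 8 were higher. Atp2a2, the cardiac SERCA pump, was 17.84 to 18.00 on the PV arrays and 17.86 to 18.15 on the ventricular arrays, a difference of -0.02 ± 0.07. Of the peptides that act on it, Sln was higher and Strit1 lower as given above. Pln, phospholamban, was 16.03, 16.36, 15.87 and 15.76 in PV and 17.30, 17.76 and 17.92 in V (difference -1.63 ± 0.15, adjusted p = 6.67e-06). Atp2a1, the pump of fast skeletal muscle, was 9.30, 9.72, 9.77 and 9.93 in PV and 6.56, 6.83 and 6.99 in V (difference 2.91 ± 0.13). Itpr1, the inositol trisphosphate receptor of smooth muscle and atria, was higher by 1.09 ± 0.10, and Cacna1c, the L-type calcium channel, lower by 0.65 on the log2 scale. Ryr2, the calcium release channel, and Slc8a1, the sodium-calcium exchanger, were not called, with differences of 0.20 ± 0.10 and -0.07 ± 0.11.

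Of 26 potassium channel genes tested, 7 were higher and 8 lower, against 18.8% and 22.5% of all genes. Kcnj3 and Kcnj5 form the channel that the vagus opens through muscarinic receptors. Kcnj3 was 12.42, 12.60, 12.21 and 12.36 in PV and 9.73, 10.02 and 11.17 in V (difference 2.17 ± 0.25), and Kcnj5 was higher by 1.77 ± 0.11. Chrm2, the cardiac muscarinic receptor, was higher by 1.02 ± 0.14. Kcnk2, a stretch-sensitive two-pore channel, was 13.17, 13.19, 13.34 and 13.24 against 10.43, 11.13 and 12.14 (difference 1.98 ± 0.29), and Kcnk1 was higher by 1.74 ± 0.26. Kcnip2, the subunit that raises the transient outward current, was 15.88, 15.82, 14.90 and 15.67 against 17.40, 17.68 and 17.97 (difference -2.12 ± 0.18, adjusted p = 3.26e-06).

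Kcnd2, a pore subunit of the transient outward current, was 9.35, 9.16, 8.55 and 8.69 in PV, and its groups overlapped. Its LV mean was 9.42 and its RV mean 11.02, for a pooled difference of -1.17 ± 0.42 (adjusted p = 0.0421). The call was also lost with the replicate number, slide or array row as a block. It was lost in 7 of the 11 fits with 1 array left out, those without any 1 of the PV or RV arrays, with adjusted p from 0.0268 to 0.107 over the 11. Kcnj2, the main inward rectifier, was well above background on 1 PV and 4 ventricular arrays and was not tested. Its PV levels were 6.62, 3.10, 4.94 and 3.93.

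Of 15 genes tested among sodium, pacemaker and chloride channels, 2 were higher and 2 lower. Hcn4, the main pacemaker channel of the sinus node, was 9.09, 9.82, 8.57 and 9.27 in PV and 8.60, 9.70 and 10.05 in V (difference -0.36 ± 0.27, adjusted p = 0.316). Hcn2 was 6.13, 6.30, 6.65 and 6.26 against 7.72, 8.04 and 8.24, lower by 3.23-fold (adjusted p = 8.73e-07). Scn4b, a sodium channel beta subunit, was lower by 2.31 on the log2 scale and Scn2b, another, was higher by 1.25 ± 0.14. Clcn2, a chloride channel, differed by -0.24 ± 0.14 (adjusted p = 0.184), and by -0.34 with adjusted p = 0.0148 without RV2.

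From the pacemaker myocyte list, 15 of 20 genes were tested, 9 higher and 1 lower, or 2 lower without RV2, and of the 13 well above background on all arrays 8 were higher and 1 lower. Cacna1g, a T-type calcium channel of pacemaker cells, was 10.98, 11.31, 10.94 and 10.58 in PV and 7.33, 8.10 and 8.35 in V (difference 2.97 ± 0.19). Vsnl1, a neuronal calcium sensor also found in the sinus node, was 11.73, 12.36, 11.97 and 11.93 against 6.24, 6.81 and 9.02 (difference 4.43 ± 0.61), with means of 6.53 in LV and 8.95 in RV. Of 7 connexin genes tested, 2 were higher and 1 lower, against 18.8% and 22.5% of all genes. Each of the 11 fits with 1 array left out called 0 or 1 connexin higher. Gja1, the main connexin of working muscle, was 13.61, 13.13, 13.11 and 13.21 against 13.91, 14.18 and 14.51 (difference -0.91 ± 0.13). Gja5, the connexin of atria and conduction fibres, differed by -0.22 ± 0.17 (adjusted p = 0.330).

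Most genes of fatty acid oxidation were lower in PV. Of 26 fatty acid oxidation genes, all well above background on every array, 22 were lower and 0 higher, with a median of -1.13. All 22 were also called against LV and RV separately. Acaa2, the last thiolase step in mitochondria, was 13.35, 12.99, 13.22 and 12.92 in PV and 15.20, 15.35 and 15.57 in V (difference -2.25 ± 0.10, adjusted p = 3.34e-08). Eci1 differed by -1.86 ± 0.11, Acadm, the medium-chain dehydrogenase, by -1.69 ± 0.11, Cpt2 by -1.60 ± 0.08 and Fabp3, the fatty acid carrier of heart, by -1.44 ± 0.11. Ucp3, a mitochondrial carrier tied to fat use, was 6.90, 7.30, 5.29 and 7.05 against 9.10, 10.11 and 11.04 (difference -3.42 ± 0.45). Pdk4, Ucp2, Cpt1a and Ppargc1a were the 4 genes of this list that were not called.

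**Figure D3:**
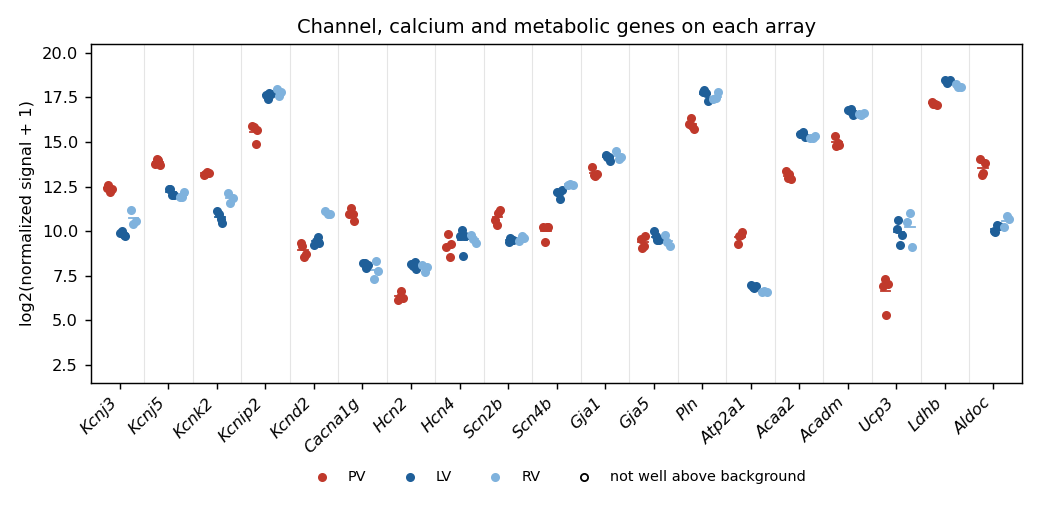
Level of channel, calcium and metabolic genes on each array (vertical axis, log2 of the normalized signal plus 1), with PV, LV and RV arrays as points, open where not well above background, and a bar at each group mean. The 4 PV points of Kcnj3, Kcnk2, Cacna1g and Atp2a1 lie above all 7 ventricular points, those of Kcnip2, Hcn2, Acaa2 and Acadm below, and those of Hcn4 and Gja5 among them.

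The subunits of oxidative phosphorylation shifted less. Of 47 tested, 33 were lower and 0 higher, with a median of -0.36, and 21 were lower under quantile normalization, where the median was -0.18. The largest difference among them was -0.88 ± 0.12, of Cox4i2, and Ndufv2 and Uqcrc1 each differed by -0.61. Among 21 glycolysis genes, 11 were lower and 3 higher, with a median of -0.24. The lower count fell to 6 under quantile normalization and to between 5 and 7 without PV1, PV2 or PV4. Ldhb, the heart form of lactate dehydrogenase, was lower by 1.15 on the log2 scale. Aldoc, the aldolase of brain and smooth muscle, was higher at 14.03, 13.17, 13.24 and 13.80 against 9.96, 10.30 and 10.83 (difference 3.23 ± 0.21), and Pfkp by 0.98 ± 0.09.

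Peptide hormones and their receptors were higher in PV or not called. Of 17 genes tested, 8 were higher and 0 lower, with 1 lower without PV1, PV2 or RV1. Without PV2 and RV2 together, a fit chosen after the data were seen, 5 were higher. Nppa, the atrial natriuretic peptide, was 17.17, 19.03, 18.18 and 18.12 in PV and 10.38, 14.55 and 16.26 in V. Its mean was 15.58 in LV and 10.96 in RV, and the pooled difference was 4.52 ± 1.20 (adjusted p = 0.0106). It was 2.54 against LV and 7.17 against RV, and the pooled call was lost without PV2 and RV2 together, where the difference was 3.92. Nppb, the B-type peptide, was 14.26, 16.71, 14.89 and 15.06 in PV and 12.87, 15.82 and 17.01 in V (difference 0.33 ± 0.88, adjusted p = 0.780), below the LV mean of 16.29 and above the RV mean of 13.04. Npr3, the clearance receptor for these peptides, was 11.15, 10.74, 10.93 and 11.15 against 7.16, 7.69 and 8.12 (difference 3.31 ± 0.18). Agt, angiotensinogen, was 11.08, 12.39, 10.72 and 11.62 against 6.53, 7.19 and 7.98 (difference 4.32 ± 0.33), and its receptor gene Agtr1a was higher by 1.79 ± 0.13. Hamp, which encodes the iron hormone hepcidin and was named after its values were seen, was 16.67, 16.99, 16.56 and 16.88 against 10.88, 11.62 and 12.30.

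Of 13 tested receptors for autonomic transmitters, 3 were higher and 5 lower, and of the 11 well above background on all arrays 1 was higher and 5 lower. The alpha-1 adrenergic receptor genes Adra1d and Adra1a differed by -1.58 ± 0.15 and -1.08 ± 0.13, while Adrb1, the main beta receptor of heart muscle, differed by -0.15 ± 0.20 and was not called. Adrb3, the beta receptor of fat, was higher by 2.63 ± 0.40 and Npy1r, a receptor of neuropeptide Y, by 2.54 ± 0.41.

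Most smooth muscle and matrix genes that were called were higher in PV. Of 18 smooth muscle genes, all tested, 11 were higher and 3 lower, with a median of 1.09. The 3 lower genes were Pln, Des and Rgs5, and Pln and Des are also expressed in heart muscle. The list's summed signal was 241320 to 266452 in PV and 290880 to 362638 in V. Pln alone made up 25.8% of it in PV and 63.8% in V, and Des was second, so the sum says little about the other genes. Actg2, enteric smooth muscle actin, was 15.20, 14.81, 15.24 and 15.42 in PV and 9.83, 10.77 and 11.97 in V (difference 4.23 ± 0.43). Tagln, an actin-binding protein, was 14.29, 13.60, 14.31 and 14.38 against 10.06, 10.84 and 11.74 (difference 3.22 ± 0.34). Myh11, the smooth muscle myosin heavy chain, was 14.02, 13.46, 14.16 and 14.14 against 10.26, 11.11 and 11.56 (difference 2.96 ± 0.24). PV2 had the lowest PV level of all 3. Itga8 was higher by 3.64 ± 0.29 and Cnn1, calponin, by 3.84 ± 0.32.

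In the elastic fibre list 9 of 16 genes were higher and 2 lower, and 7 were higher against LV and RV separately. In the refits with fewer arrays, 5 were higher with RV alone and 6 with LV alone. Eln, elastin, was 14.28, 13.58, 15.56 and 15.25 in PV and 12.04, 12.49 and 13.23 in V (difference 2.13 ± 0.35). Ltbp2, which associates with elastic microfibrils, was 8.26, 8.37, 10.12 and 10.33 in PV, with a difference of 1.48 ± 0.44 and an adjusted p of 0.0191 that rose to 0.066 and 0.067 without PV3 and PV4, where the differences were 1.20 and 1.13. Both genes were higher on PV3 and PV4 than on PV1 and PV2. The lower genes were Fbn2, a fibrillin, by 1.10 on the log2 scale, and Emilin1. Of 12 collagen genes tested, 7 were higher and 1 lower, and the fibroblast list had 6 of 13 higher and 1 lower, or 2 lower without PV4, LV1 or LV3. Col1a1 was 16.65, 16.17, 16.65 and 16.95 against 14.10, 14.62 and 15.10 (difference 2.01 ± 0.21), and Pi16, a marker of adventitial fibroblasts, was higher by 2.13 ± 0.18. Col4a1, of the basement membrane, was the lower one, at -0.54. The summed signal of the collagen list was 356924 to 566448 in PV and 153778 to 254589 in V.

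**Figure D4:**
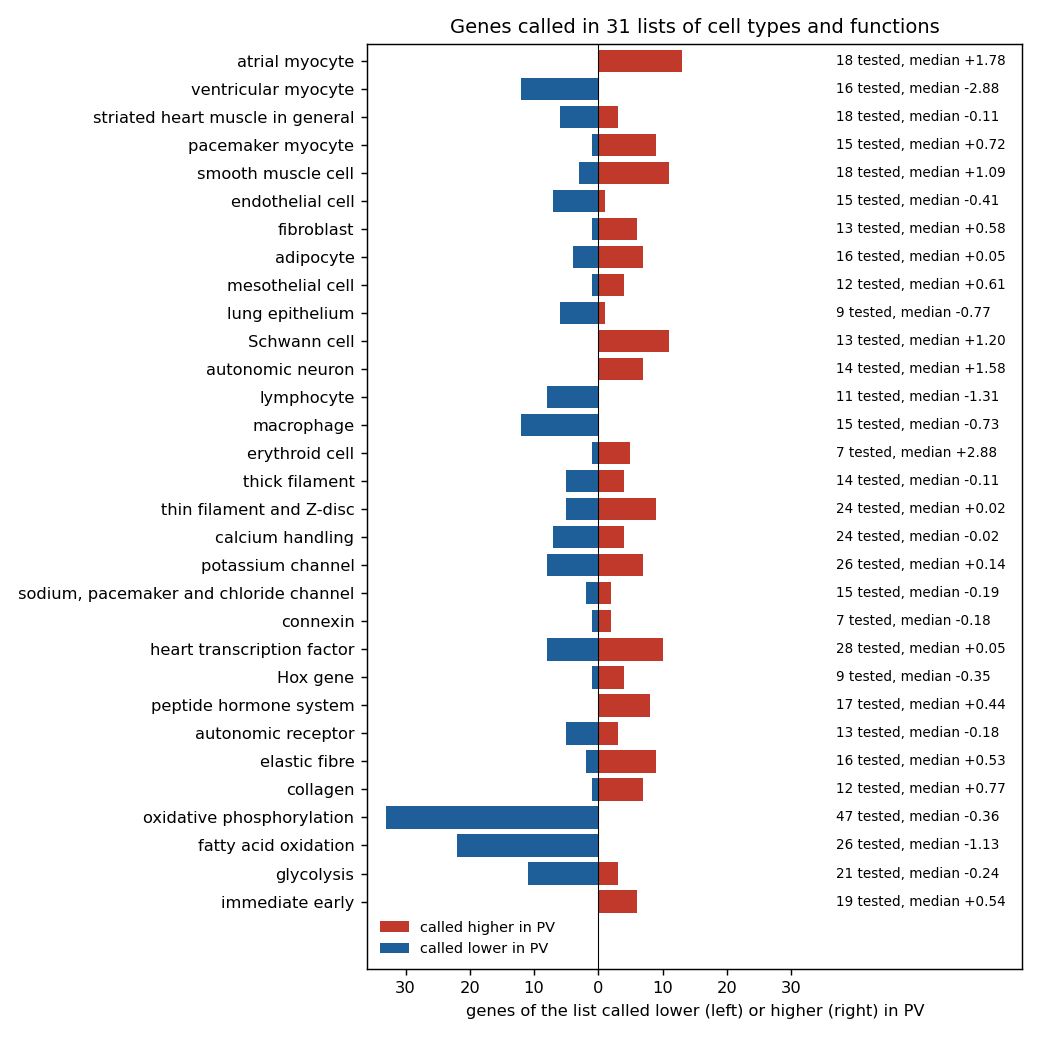
Number of genes called higher (right, red) or lower (left, blue) in PV in each of the 31 lists, with the number of genes tested and their median difference at the right. The atrial myocyte, Schwann cell, autonomic neuron, peptide hormone and immediate early lists have no gene called lower, and the ventricular myocyte, lymphocyte, macrophage, oxidative phosphorylation and fatty acid oxidation lists none called higher.

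Genes of neurons and of their Schwann cells were higher in PV or not called. Of 14 tested autonomic neuron genes, 7 were higher and 0 lower, with a median of 1.58 that was 0.98 with no filter on dim genes, and of 13 tested Schwann cell genes 11 were higher and 0 lower, with a median of 1.20. Of the genes well above background on all 11 arrays, 3 of 9 neuron genes and 9 of 11 Schwann genes were higher. Npy, neuropeptide Y of sympathetic neurons, was 12.69, 12.11, 10.15 and 13.74 in PV and 6.71, 7.24 and 8.36 in V (difference 4.87 ± 0.54). Uchl1, a ubiquitin hydrolase of neurons, was 11.68, 11.43, 9.81 and 12.86 against 6.34, 6.64 and 7.12 (difference 4.76 ± 0.42), and Stmn2 and Nefm were higher by 4.47 ± 0.50 and 3.68 ± 0.52. For these 4 genes PV3 was the lowest and PV4 the highest PV array, and the summed signal of the neuron list ran from 11259 to 37195 in PV and from 5529 to 12025 in V. Mbp, a myelin protein, was 13.39, 12.90, 13.05 and 13.36 in PV, steadier than the neuron genes, and 7.24, 8.31 and 9.32 in V (difference 4.87 ± 0.31). S100b, also of Schwann cells, was higher by 3.60 ± 0.32. Summed over the Schwann list, the signal was 25387 to 31356 in PV and 7810 to 12084 in V. Without RV2, 1 Schwann gene was called lower, and without RV1, 1 neuron gene. Dbh and Ddc, enzymes of catecholamine synthesis, were not called, with differences of 0.80 and 0.15. How far nerve tissue on the vein takes part in other results was not tested.

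Of 16 adipocyte genes tested, 7 were higher and 4 lower. The median of the adipocyte list was 0.05, but -0.10 without PV1, -0.03 without PV4, -0.02 without LV1 and 0.28 without PV3. Of the 12 well above background on all 11 arrays, 3 were higher and 4 lower. Ucp1, the uncoupling protein of brown fat, was 12.42, 12.32, 8.16 and 8.35 in PV and 3.38, 4.46 and 5.04 in V, where 3 of 7 arrays were above background (difference 6.04 ± 0.82, adjusted p = 1.47e-04). Within the slides the difference was 8.85, 4.32 and 3.39, the first on the slide of PV1 and PV2 with LV4 as its 1 ventricular array, the others with 1 PV array each. Adipoq, adiponectin, was 10.88, 10.09, 8.38 and 10.84 against 3.02, 4.77 and 7.79 (difference 5.33 ± 0.79). RV2 gave its highest ventricular value, and without RV2 the difference was 5.84. Retn, resistin, was higher by 4.76 ± 0.62, and the fat-related genes Scd and Car3 by 4.87 ± 0.60 and 5.94 ± 1.04, Scd having been named after its values were seen. Cox8b, Cpt1b, Plin4 and Pnpla2 were the lower genes of the list. The list's summed signal was 321635 to 371453 in PV and 432934 to 581148 in V. Cox8b alone made up 66.3% of it in PV and 70.7% in V, and Cpt1b was second, so the sum says little about the other genes. Car3 ranged from 4.71 to 10.77 in V and did not overlap with PV, where its lowest level was 11.23.

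Genes of blood and immune cells differed in opposite directions. Of 7 erythroid genes tested, 5 were higher and 1 lower, with a median of 2.88, or 1.62 over the erythroid cell list with no filter. Hba-a1 was 16.11, 16.33, 16.10 and 16.70 in PV and 12.89, 13.34 and 14.05 in V (difference 2.88 ± 0.21), and Hbb-b1 and Hbb were higher by 3.45 ± 0.27 and 3.68 ± 0.33, though the globin genes are near copies whose probes may share targets. Alas2, of heme synthesis in red cells, was higher by 1.62 ± 0.26, and Slc4a1, the anion exchanger of the red cell membrane, lower by 1.73 on the log2 scale. The summed signal of the erythroid list was 103878 to 148865 in PV and 9877 to 23083 in V, and its part in other results was not tested.

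Of 11 tested lymphocyte genes 8 were lower in PV and 0 higher, and 5 of the 8 that were well above background on all 11 arrays were lower. The lymphocyte list had a median of -1.31 that was -0.57 under normexp background correction and -0.71 with no filter, and 12 of 15 macrophage genes were lower and 0 higher, with a median of -0.73. Within the lymphocyte list, Nkg7 and Gzmb, of cytotoxic granules, had the largest differences. Nkg7 was 8.39, 8.66, 8.31 and 7.85 in PV and 11.97, 12.26 and 12.46 in V (difference -3.93 ± 0.14, adjusted p = 6.86e-09), and Gzmb 6.22, 5.95, 6.40 and 5.23 against 9.31, 9.47 and 9.67 (difference -3.55 ± 0.18). Cd3g, of the T cell receptor complex, differed by -2.91 ± 0.14. Klrd1, Klre1, Gzmc, Ccl5, Cd7, Faslg and Txk, 7 genes of natural killer and T cells named after their values were seen, differed by -3.96 to -4.42, and none overlapped between the sides. Under normexp background correction all 7 were closer to 0, with Klrd1 at -1.78, Klre1 at -1.87, Faslg at -1.71 and Txk at -1.87, and Gzmc, Ccl5 and Cd7 at -4.01, -3.80 and -3.63. Tyrobp and Fcer1g, signalling adaptors of myeloid and killer cells, differed by -1.84 ± 0.09 and -1.69 ± 0.11, and Adgre1, a macrophage marker, by -1.39 ± 0.11. Summed over the lymphocyte list, the signal was 2107 to 2398 in PV and 8051 to 10225 in V, and that of the macrophage list 43485 to 44966 and 65537 to 98802. Cd3e and Cd79b were not well above background on any PV array.

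**Figure D5:**
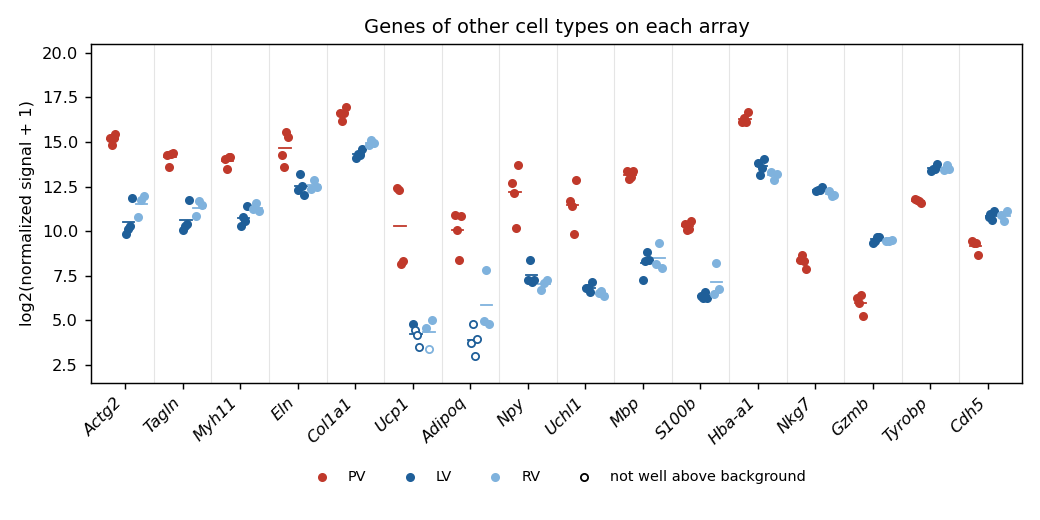
Level of genes of smooth muscle, matrix, fat, nerve, blood and endothelium on each array (vertical axis, log2 of the normalized signal plus 1), with PV, LV and RV arrays as points, open where not well above background, and a bar at each group mean. Ucp1 splits the PV arrays into a pair at 12.42 and 12.32 and a pair at 8.16 and 8.35, Npy is lowest on PV3, and Nkg7, Gzmb, Tyrobp and Cdh5 lie below all ventricular points.

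Of 15 endothelial genes tested, 7 were lower and 1 higher, with a median of -0.41 that was -0.62 for the endothelial cell list against LV alone and -0.25 against RV alone. Cdh5, the cadherin of endothelial junctions, was 9.44, 9.32, 9.32 and 8.67 against 10.58, 10.89 and 11.14 (difference -1.68 ± 0.16), and Vwf was lower by 1.17 on the log2 scale. Plvap, of the diaphragms of fenestrae and caveolae, was the 1 gene that was higher, at 1.66 ± 0.21. Of 12 mesothelial genes tested, 4 were higher and 1 lower, against 18.8% and 22.5% of all genes. With LV alone or with the array row as a block, 7 were higher. The lower one was Wt1, at -1.17 ± 0.20. Among 9 tested genes of lung epithelium 6 were lower and 1 higher, and of the 6 well above background on all arrays 5 were lower and 0 higher. Sftpc, surfactant protein C, was 6.10, 5.40, 6.08 and 4.76 in PV and 7.39, 8.77 and 8.99 in V, and Sftpb was not well above background on any PV array. The higher gene was Cdh1, epithelial cadherin, at 6.57, 6.41, 6.75 and 7.53 in PV with no ventricular array above background. Its measured means were 6.81 and 2.87, and with the ventricular arrays at their floor it was 11.8-fold higher in PV. Its difference of 3.94 was 1.18 under normexp.

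Immediate early genes are transcription factors whose RNA rises quickly after a stimulus. Of 19 tested, 6 were higher in PV and 0 lower, against 18.8% and 22.5% of all genes, with a median of 0.54. Without PV1, 10 were higher and the median of the immediate early list was 0.98, and without PV4 it was 0.34. Without PV3 or LV4, 1 was lower. Fos was 7.42, 10.20, 10.38 and 11.59 in PV and 6.27, 7.44 and 8.77 in V (difference 2.51 ± 0.69, adjusted p = 0.0134), its groups overlapped, and against RV alone it was not called. Atf3 was 12.42, 10.04, 12.87 and 11.65 against 8.63, 9.17 and 10.09 (difference 2.51 ± 0.45). PV1 was lowest for Fos and PV2 for Atf3. The part of this list in other results was not tested.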

How the data were processed

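RNA of PV, LV and RV was hybridised in 1 color to Agilent 8x60K rat gene expression arrays (SurePrint G3, v2), and the scanner files were made with Agilent Feature Extraction 11.0.1.1. Per the file headers, the scanner values are background-subtracted signal intensities. The authors' deposited normalized intensities are these signals multiplied by 1 factor per array, which sets the 90th percentile equal; on each array at least 99.6% of probes with a signal above 100 lay within 2% of that scaling. The deposited intensities were used, with 1 added before log2. Detection flags (well above background) and slides came from the scanner files. Of 45596 probes, 156 with a missing value were left out, and 21047 of 45440 were named through RefSeq accessions (GRCr8). Of several probes of a gene the highest was taken on each array, for 3638 genes. No spot was saturated.

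A gene was tested where its probe was well above background on every array of PV or of V. PV was tested against the 7 ventricular arrays with limma 3.58.1 (R 4.3.3) and Benjamini-Hochberg adjustment over 12031 genes. Some values are given with dim arrays at their floor. On each dim array these took the larger of the probe's signal and that array's lowest signal that passed the background test. Probes can fail that test at higher signals, so these folds are not lower bounds. Named genes were the 12 largest differences in each direction without overlap, up to 4 called genes of each of 31 lists, and a list of heart genes whatever their values, with others named as such; some genes of these groups are given by count only, and a few are not reported here. The members and lists were chosen with earlier results of these data known. The number of arrays limits precision. Plots were drawn with matplotlib 3.10.9 in Python 3.11.15. Alternatives were another scaling, background correction, filter, pseudocount or probe, LV or RV alone, blocks, and each array left out. Of the other regions, only the means given were used here.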

Additional observations from a re-analysis of the deposited data

Results flagged for a closer look

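Each of the 52 genes at the extremes or in the list of heart genes was screened on the 4 PV and the 7 ventricular arrays for 1 array far from the others, by Dixon's ratio at its 95% critical value, which chance exceeds in about 1 of 20 groups. Of 104 groups, 11 passed, and 4 of these were RV2, 2 were PV3, 2 PV4, and PV2, LV2 and LV4 gave 1 each. RV2 stood at 9.09 for Mybphl (the other ventricular arrays from 5.91 to 6.65), 7.79 for Adipoq (3.02 to 4.97), 8.28 for Hoxa2 (5.97 to 6.95) and 9.17 for Clcn2 (9.68 to 10.01). LV2 was high for Npy at 8.36, and LV4 was low for Tbx5 at 4.96. In PV, PV4 stood at 17.80 for Mybphl and at 4.97 for Cyp11a1, PV3 at 8.39 for Hoxa2 and at 16.27 for Myl2, and PV2 at 5.32 for Igfbpl1.

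The difference from PV was not the same for both ventricles in 5 of these genes, by the limma contrast of LV and RV. LV exceeded RV by 4.40 for Penk (adjusted p = 5.21e-05), by 4.62 for Nppa (adjusted p = 0.00605), by 2.48 for Irx2 (adjusted p = 0.0364) and by 3.25 for Nppb (adjusted p = 0.0252). For Kcnd2 the contrast was -1.60 (adjusted p = 0.00715). Nppb was lower in PV than in LV by 1.06 and higher than in RV by 2.19, on the log2 scale.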

How the results depend on the processing

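The counts of 4963 genes called, 2257 higher and 2706 lower stayed within 1.5 times under the other scalings, background correction, filters, pseudocount, choice of probe, trend, all 23 arrays, LV alone and the blocks. With RV alone, in a refit without the LV arrays, they were 3234, 1495 and 1739. Within slide 1 they were 1251, 655 and 596, within slide 2 1525, 747 and 778, within slide 3 1286, 678 and 608, within the first array row 1984, 884 and 1100, and within the second 3016, 1459 and 1557. These fits have fewer arrays, and those within slides and the first row have 1 array on a side (LV4, PV4, PV3 and PV2), which is assumed to vary like the others. Fits that left out 1 array called 4144 to 5099 genes, 1920 to 2302 higher and 2224 to 2797 lower. Of 3258 genes called in the same direction against LV and RV, 951 differed by at least 1 from both, a threshold chosen after the data were seen, and 2681 to 3075 were called in the same direction with 1 array left out. Whether samples of the same replicate number share a rat could not be told. Their deviations correlated at -0.20 to 0.36, and those of samples of different numbers at -0.37 to 0.41. With the replicate block 4756 genes were called. Under the block Kcnd2, at -1.10, was the 1 gene of 154 named genes that lost its call. Ltbp2 was the 1 named called gene that turned its direction in any setting, at -0.32 within slide 1 against LV4 alone, where it was not called, and the cause was not tested. Quantile normalization moved the median difference of all genes from -0.07 to -0.04. Genes near background have less certain differences: of 124 named genes called with a difference of at least 1, 35 had one over 1.5 times smaller under normexp background correction, 0 turned direction and 124 stayed called. Among those described, Adipoq was then at 3.31, Ucp1 3.75, Retn 2.89, Cnn1 2.41, Stmn2 2.71, Nefm 2.15, Npy1r 1.42, Adrb3 1.31, Tbx5 1.44, Hoxb3 1.25, Hoxd9 1.16, Ankrd2 0.81, Hcn2 -1.08, Sftpc -1.63 and Irx2 -1.62. In the refit with RV alone, without the LV arrays, the lower count was 4 for the heart transcription factor list, 3 for lung epithelium and 1 for smooth muscle. It was 20 for oxidative phosphorylation and 6 for glycolysis, which had 5 with the slide as a block.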
